A study of Mus musculus with 6 samples.

Results

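Ancient repeats are copies of mobile elements that stopped moving long ago and are now scattered through introns and intergenic DNA. Here they are the regions that the authors' annotation places in a MIR element, an L2 or CR1 element or a DNA transposon, on chromosomes 1 to 19 and X. There were 762 such regions among 41515 regions in all. Of these, 383 lay in DNA transposons, 226 in MIR and 153 in L2 or CR1. The regions come from CUT&Tag of TERT, the protein subunit of telomerase, a method in which an antibody brings a transposase to the protein so that the DNA beside it is cut and tagged. The cells were primary neurons cultured from the cortex and hippocampus of embryonic day 15 to 18 C57BL/6 mice. BIBR1532, a small-molecule inhibitor of telomerase, was given to 3 samples at 2 µM for 24 h, and 3 samples received vehicle (DMSO). The vehicle samples are also called untreated in a label field, and no label says whether the 3 samples of a condition were separate cultures.

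The deposited regions form 3 lists, which are called here the BIBR1532 list (higher with BIBR1532), the vehicle list (higher with vehicle) and the common list (similar in both). Which condition came first was read from the order of the conditions in the list names and is likely rather than stated. The libraries of a condition had been combined before the lists were made. Each condition is therefore 1 measurement, no spread between samples exists, and no test between the conditions could be run. Intervals below are exact Clopper-Pearson 95% intervals, which cover counting error only. The sources used here do not state the sequencing depth. Region lists carry no expression level, so the cell type could not be checked against its marker genes.

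Background helps to place the classes. MIR elements are short interspersed elements derived from tRNA genes, and L2 is the long element whose enzymes are thought to have copied them. CR1 and L3 elements are older long elements of the same broad kind. DNA transposons moved by cut and paste. The hAT-Charlie, hAT-Tip100 and TcMar-Tigger families hold most mammalian copies, many of them short remnants such as MER5A or MER20 that never encoded a transposase. Copies of all these classes are shared by many mammals, are too decayed to move in the mouse, and are known as a source of regulatory sequence. The name "ancient" does not suit every member: URR1A, URR1B, RCHARR1 and RMER30 are elements known from rodents, and they made up 91 of the 383 DNA transposon regions.

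Sequence could be shown for the members that overlap the 250 bases before a gene's start in the RefSeq promoter table (GRCm38.p6, the assembly of mm10). There were 4 such regions, and the overlapping part of each is given to show the sequence of members beside a start site. The printed part covers 88.8% of the region at Gm30064, 32.5% at Gm39857, 74.0% at Strbp and 100% at Gm6145. The repeat is named at the centre of the region, which the printed part at Gm39857 does not reach, so those bases are not shown to be URR1B. CpG dinucleotides are in capitals, and each sequence is read 5′ to 3′ on the strand of the gene.
Gm30064, BIBR1532 list, Charlie7 element, chr16:44530158-44530372, plus strand: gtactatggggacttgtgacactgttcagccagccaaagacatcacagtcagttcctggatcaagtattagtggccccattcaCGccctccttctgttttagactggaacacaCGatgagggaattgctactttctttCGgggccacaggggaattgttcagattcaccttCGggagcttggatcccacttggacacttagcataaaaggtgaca
Gm39857, BIBR1532 list, region named URR1B, chr2:75396264-75396356, minus strand: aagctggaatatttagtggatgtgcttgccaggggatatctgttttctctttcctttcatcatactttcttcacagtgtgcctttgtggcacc
Strbp, vehicle list, MIRb element, chr2:37703908-37704109, minus strand: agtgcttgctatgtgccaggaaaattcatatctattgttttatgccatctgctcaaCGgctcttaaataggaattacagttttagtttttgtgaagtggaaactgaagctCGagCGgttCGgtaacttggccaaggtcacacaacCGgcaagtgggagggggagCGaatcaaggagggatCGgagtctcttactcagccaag
Gm6145, common list, L2c element, chr14:105631353-105631540, minus strand: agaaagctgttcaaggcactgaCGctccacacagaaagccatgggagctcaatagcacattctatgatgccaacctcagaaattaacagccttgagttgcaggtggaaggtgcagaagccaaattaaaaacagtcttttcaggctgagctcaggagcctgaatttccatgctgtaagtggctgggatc

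The 4 stretches differed in their CpG dinucleotides. The Strbp stretch of 202 bases had 7 CpG and a GC content of 46.5%, and the Gm30064 stretch of 215 bases had 4 CpG and 48.8% GC. The Gm6145 stretch of 188 bases had 1 CpG and 47.3% GC, and the Gm39857 stretch of 93 bases had none and 43.0% GC. Each was below the median GC content of all RefSeq promoter windows cut to the same length, which lay between 52.6% and 54.8%. The authors' annotation does not use these starts: it gives Mir3081, 9430019J16Rik, Mir5128 and Mir6390 as the nearest genes of the regions at Gm30064, Gm39857, Strbp and Gm6145. Searched on both strands, none of the 4 stretches held the telomeric unit TTAGGG, the E-box CACGTG, the AP-1 site TGACTCA or the CTCF core AGGNGGC. Of 32851 promoter windows cut to the 215 bases of the Gm30064 stretch, 7.95% held TTAGGG, 5.49% held CACGTG, 3.88% held TGACTCA and 22.8% held AGGNGGC.

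Ancient repeats were found mainly in the condition-specific lists. The BIBR1532 list held 349 of them, the vehicle list 389 and the common list 24. All lay in introns (437) or intergenic DNA (325), the only places where the annotation program names a repeat, so intron and intergenic regions are the proper comparison. Among these, ancient repeats made up 2.63% of the BIBR1532 list (2.36 to 2.92), 2.53% of the vehicle list (2.29 to 2.79) and 1.11% of the common list (0.710 to 1.64). The intervals of the BIBR1532 and vehicle lists overlap, and that of the common list lies below both.

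Each class had its lowest share in the common list. DNA transposons made up 1.36% of the BIBR1532 list, 1.26% of the vehicle list and 0.415% of the common list (0.190 to 0.786). MIR made up 0.723%, 0.781% and 0.461% of the BIBR1532, vehicle and common lists, and L2 with CR1 made up 0.550%, 0.488% and 0.231%. For MIR and for L2 with CR1 the interval of the common list overlaps those of the condition-specific lists. L2 alone made up 0.4595%, 0.4165% and 0.1383% of the BIBR1532, vehicle and common lists. CR1 alone, with 2 common regions, made up 0.0904%, 0.0716% and 0.0922%, so it was not lower in the common list. A lower share in the common list was not particular to old repeats. Any named repeat covered 30.7% of the BIBR1532 list, 30.8% of the vehicle list and 13.9% of the common list, and B1, a short element of rodents, made up 2.40%, 2.57% and 0.507%. LINE-1, a long element that is still active in the mouse, made up 8.26%, 8.43% and 5.86%, which was the smallest ratio between the condition-specific lists and the common list among the 6 groups.

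**Figure D1:**
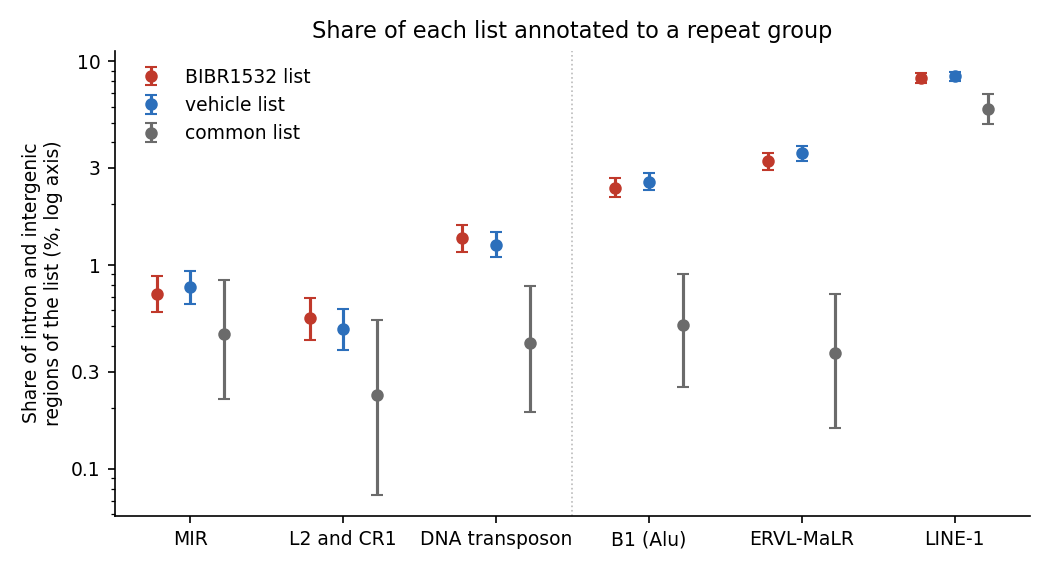
Share (in percent, log axis) of the intron and intergenic regions of the BIBR1532, vehicle and common lists that lie in each repeat group, with exact 95% intervals as bars. The 3 groups left of the dotted line are the ancient repeats, and the common list is lowest in all 6 groups, at 0.415% for DNA transposons against 1.36% in the BIBR1532 list.

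Ancient repeats were divided between the conditions much as all regions were. The BIBR1532 list holds 38.9% of all regions and the vehicle list 44.7%, so the BIBR1532 share of condition-specific regions is 46.5% over all regions and 46.3% over intron and intergenic regions. Of the 738 condition-specific ancient repeats, 349 were in the BIBR1532 list, a share of 47.3% (43.6 to 51.0). The interval holds the share of all regions. MIR split 96 to 120 between the BIBR1532 and vehicle lists (44.4%, 37.7 to 51.3), L2 with CR1 73 to 75 (49.3%, 41.0 to 57.7) and DNA transposons 180 to 194 (48.1%, 43.0 to 53.3). No class stood apart from the background in its direction. LINE-1, B1 and ERVL-MaLR were at 45.9%, 44.7% and 44.1%.

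Among DNA transposons the split was even in the main family, and 2 smaller ones had shares on either side of the background. hAT-Charlie, the largest family, had 118 regions in the BIBR1532 list and 118 in the vehicle list, with 6 in the common list. TcMar-Tigger, a family of mariner relatives, had 31 regions in the BIBR1532 list and 56 in the vehicle list, a BIBR1532 share of 35.6% (25.6 to 46.6). hAT-Tip100 had 14 regions in the BIBR1532 list and 5 in the vehicle list, a share of 73.7% (48.8 to 90.9). Of 14 families it was the only one whose interval leaves out the 46.5% of all regions, and it rests on 19 regions. Without the most frequent score 7 hAT-Tip100 regions were left, and the interval of 29.0 to 96.3 holds 46.5%. At a score of at least 3 the TcMar-Tigger interval was 24.8 to 46.2, which leaves 46.5% out. In both settings the 46.5% is over unfiltered regions and is not a like background. At a score of at least 3 the lists held 13653 BIBR1532 and 16773 vehicle regions. Without the most frequent score, 12 of 40 TcMar-Tigger regions were in the BIBR1532 list (30%, 16.6 to 46.5). The lists then held 8589 BIBR1532 and 9247 vehicle regions. The background differs between the settings and was not computed for each, so no call is drawn for TcMar-Tigger. These settings were added after seeing the data. All 14 families were read side by side, and no adjustment was made for their number.

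The members carried 117 subfamily names, of which 42 occurred once. The 12 names with at least 20 regions covered 460 members, and 6 of them lay above and 6 below the share of all regions. URR1A, a rodent hAT-Charlie element, was the only one of the 12 whose interval leaves out 46.5%, with 23 regions in the BIBR1532 list and 11 in the vehicle list (67.6%, 49.5 to 82.6). At widths of at least 500 bp, a setting added after seeing the data, 6 URR1A regions were left and the share was 33.3%. Without the most frequent score 8 were left, and the interval of 24.5 to 91.5 holds the 46.5% of unfiltered regions. Its relative URR1B split the other way, 10 to 18 (35.7%, 18.6 to 55.9), and RCHARR1 split 9 to 15 (37.5%). The rodent elements as a group, which was formed after the values were seen, split 46 to 45 between the BIBR1532 and vehicle lists, and the other DNA transposons 134 to 149. The rodent elements had no region in the common list, and the other DNA transposons had 9 of 292. The names L2, with 38 regions, and MER2, with 20, had none there either, so this is not particular to rodent elements.

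The MIR subfamilies lay close together. MIRb, the most frequent name, had 30 regions in the BIBR1532 list, 46 in the vehicle list and 3 in the common list (39.5%, 28.4 to 51.4). MIR itself had 33, 35 and 2, MIR3 17, 21 and 4, and MIRc 16, 18 and 1. The L2 subfamilies ran from L2b, with 11 regions in the BIBR1532 list and 18 in the vehicle list (37.9%), to L2c, with 13 and 9 (59.1%). L2 and L2a lay between them at 18 to 20 and 19 to 17. MER2, a short Tigger derivative, split 7 to 13 (35.0%). All of these intervals hold the share of all regions.

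**Figure D2:**
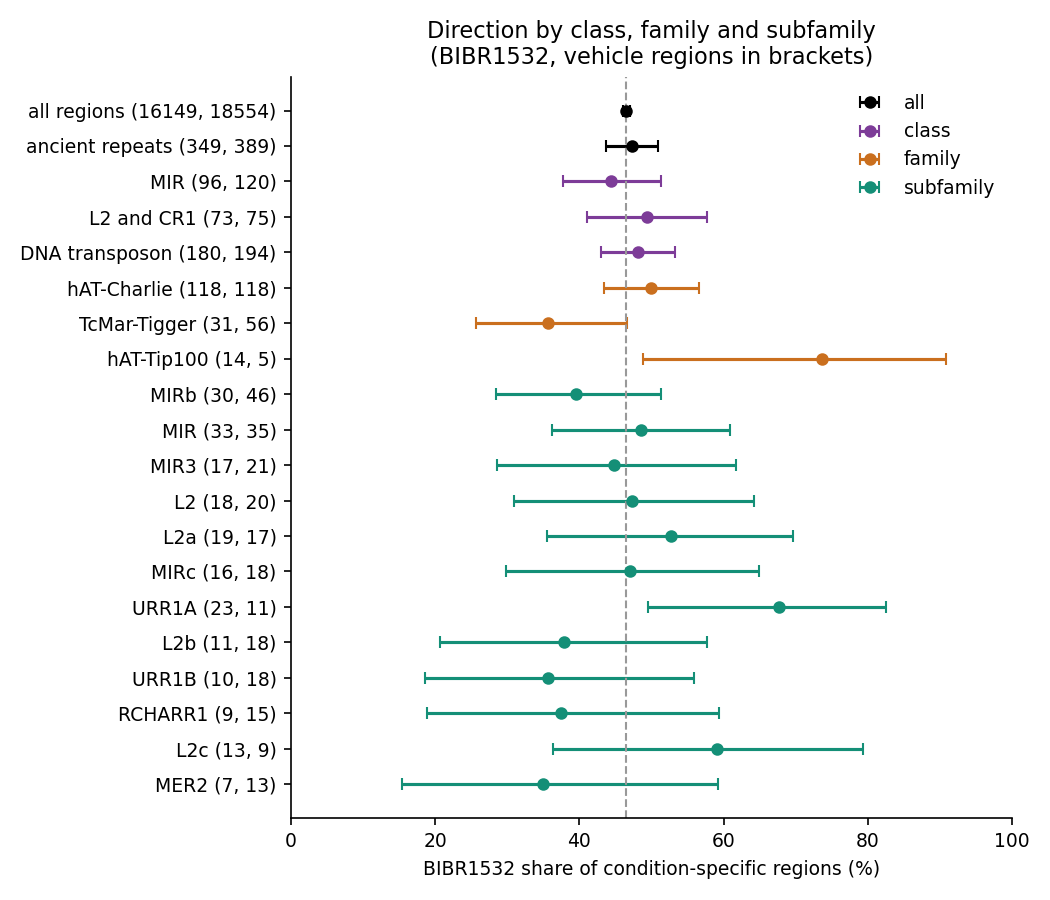
BIBR1532 share (in percent) of the condition-specific regions of all regions, ancient repeats, their classes, 3 DNA transposon families and the 12 subfamilies with at least 20 regions, with exact 95% intervals as bars and region counts (BIBR1532, vehicle) in brackets. The dashed line marks the 46.5% of all regions, which lies outside the intervals of hAT-Tip100 (73.7%) and URR1A (67.6%) only.

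The authors' score ranks regions within a list, and many regions share the same score. In the BIBR1532 list 204 of 349 ancient repeats (58.5%, 53.1 to 63.7) had the most frequent score of that list, 6.34, beside 52.2% of its intron and intergenic regions. By class this share was 50% for MIR, 57.5% for L2 with CR1 and 63.3% for DNA transposons. It was 62.3% for LINE-1, 61.2% for ERVL-MaLR and 54.55% for B1, so it was not particular to ancient repeats. In the vehicle list 218 of 389 (56.0%) had its most frequent score, 5.19, the same share as its intron and intergenic regions. Members below the most frequent score numbered 42 in the BIBR1532 list (12.03%) and 16 in the vehicle list (4.11%). Members above it numbered 103 (29.5%) in the BIBR1532 list and 155 (39.8%) in the vehicle list. Intron and intergenic regions had the same order, with 17.7% below in the BIBR1532 list and 6.90% in the vehicle list, and 30.1% above in the BIBR1532 list and 37.1% in the vehicle list.

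Within the BIBR1532 list the share of members above its most frequent score was 34.4% for MIR (25.0 to 44.8), 28.8% for L2 with CR1 (18.8 to 40.6) and 27.2% for DNA transposons (20.9 to 34.3). Within the vehicle list it was 35% for MIR (26.5 to 44.2), 42.7% for L2 with CR1 (31.3 to 54.6) and 41.8% for DNA transposons (34.7 to 49.0). The intervals of the 3 classes overlap within each list.

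**Figure D3:**
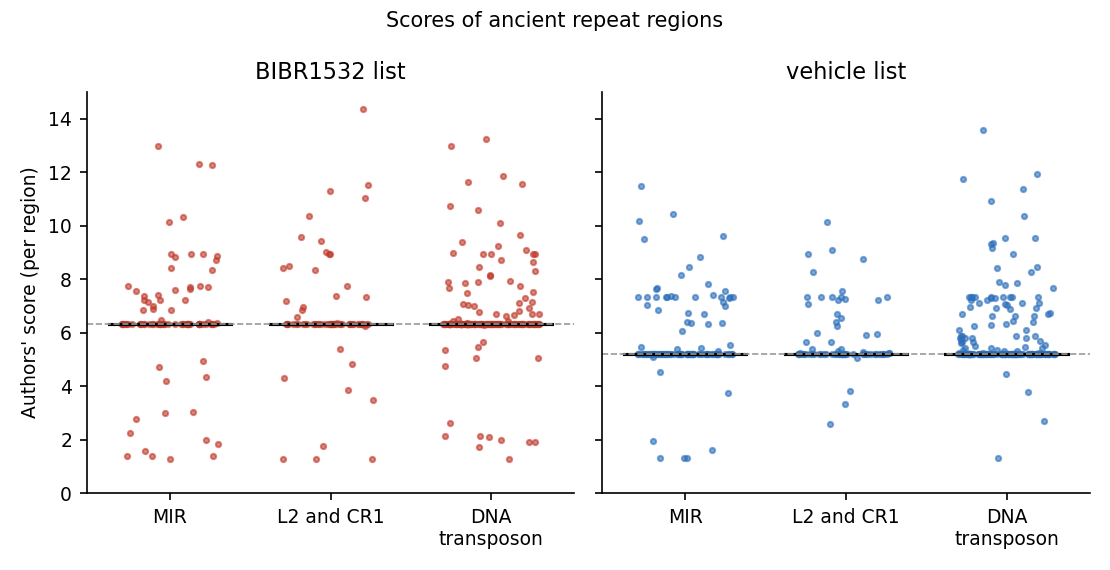
Authors' score of each ancient repeat region (points, spread sideways at random) by class, in the BIBR1532 list (left) and the vehicle list (right); black bars are class medians and the dashed lines the most frequent score of each list. Every median lies on the most frequent score, 6.34 in the BIBR1532 list and 5.19 in the vehicle list, and scores reach 14.4 and 13.6.

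The members of highest score were of all 3 classes. In the BIBR1532 list the highest score, 14.4, belonged to a CR1 element (X7B_LINE) at chr6:46184851-46185149, in intron 9 of 23 of Cntnap2, a neurexin-family adhesion protein of axons. A Tigger1 element in intron 11 of 22 of Sema5a, a guidance semaphorin, had a score of 13.3 over 920 bp at chr15:32577430-32578349. A MER2 element in intron 7 of 11 of Ufsp2, a protease of the UFM1 pathway, scored 13.0 at chr8:45987668-45988121. A MIRb element in intron 3 of 20 of Adcy5, an adenylyl cyclase, scored 12.3 at chr16:35255713-35255966. These 4 lay in introns.

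In the vehicle list 4 of the 5 highest scores were intergenic, and 4 of the 5 were DNA transposons. A MER127 element nearest Samd5 scored 13.6 at chr10:9534236-9534748, 140716 bp from that gene's start. A MER3 element nearest Cdh20, a cadherin, scored 11.9 at chr1:104481636-104482474. A MER2 element in intron 2 of 4 of Mc2r, the receptor for ACTH, scored 11.7 at chr18:68420878-68421030. A MIRb element 2157 bp from the start of the microRNA gene Mir129-1 scored 11.5 at chr6:29024587-29024966, and a MER5B element nearest the noncoding 9530026F06Rik scored 11.4 at chr1:61226723-61227102. Scores belong to their own list, so the values of the BIBR1532 and vehicle lists are not compared.

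Regions at ancient repeats were as wide as other regions. Median widths were 254 bp in the BIBR1532 list, 262 bp in the vehicle list and 249.5 bp in the common list, beside 255, 251 and 233 bp over intron and intergenic regions. Widths of at least 500 bp were found for 64 members of the BIBR1532 list (18.3%), 75 of the vehicle list (19.3%) and 1 of the common list (4.17%). Over intron and intergenic regions the shares were 17.7%, 16.9% and 9.77%. The annotation names the repeat at the centre of a region, so a wide region is only in part that repeat. The widest members show this. A region of 7634 bp named for a MER53 element lay nearest Zfp330 at chr8:82635977-82643610, in the BIBR1532 list. A region of 4576 bp named for an L2a element lay nearest Neurod1, a transcription factor of neuronal differentiation, at chr2:79495195-79499770, with a score of 11.5 in the BIBR1532 list. In the vehicle list the widest was a region of 3943 bp named for Tigger7 in intron 2 of 21 of Palld, an actin-associated protein, at chr8:61842390-61846332.

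The intronic share of ancient repeats was above those of LINE-1 and ERVL-MaLR. In the BIBR1532 list 59.6% of members were intronic (54.2 to 64.8), and in the vehicle list 56.8% (51.7 to 61.8). The background over intron and intergenic regions was 53.8% in the BIBR1532 list, just outside the members' interval, and 52.8% in the vehicle list, inside it. LINE-1 regions were intronic in 35.4% and 34.2% of cases in the BIBR1532 and vehicle lists, and ERVL-MaLR regions in 39.1% and 42.6%, and B1 regions in 51.7% and 55.4%. L2 with CR1 had the highest intronic share, 65.8% in the BIBR1532 list and 62.7% in the vehicle list. Of the numbered introns, the first was the host for 32.2% of intronic members in the BIBR1532 list and 34.4% in the vehicle list. Over all intronic regions of these lists it was the host for 35.8% and 34.8%.

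Few members lay beside a start site. The median distance to the nearest transcription start was 39.5 kb in the BIBR1532 list, 35.7 kb in the vehicle list and 31.5 kb in the common list, beside 34.9, 37.8 and 11.8 kb over intron and intergenic regions. Within 1 kb of a start lay 8 members of the BIBR1532 list (2.29%, 0.995 to 4.47), beside 5.37% of its intron and intergenic regions. In the vehicle list 10 members did (2.57%, 1.24 to 4.68), beside 4.58%, and in the common list 3 of 24 (12.5%, 2.66 to 32.4), beside 29.1%. Within 10 kb lay 14.9% of members of the BIBR1532 list (11.3 to 19.1) beside 24.4% of the background, and 19.02% of the vehicle list (15.2 to 23.3) beside 21.0%. Only in the BIBR1532 list does the background lie outside the members' interval at 10 kb. LINE-1 had no condition-specific region within 1 kb of a start. B1 had 0.3135% in the BIBR1532 list and 1.01% in the vehicle list, and ERVL-MaLR 0.233% and 0.367%. Scarcity within 1 kb was thus not particular to ancient repeats, and these 3 repeat groups had lower shares.

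**Figure D4:**
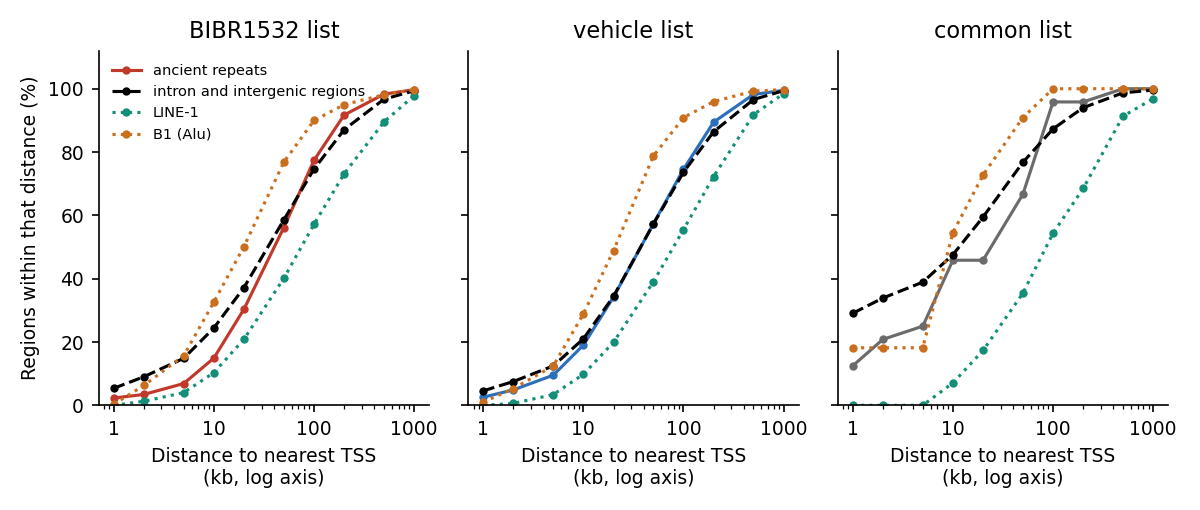
Cumulative share (in percent) of regions within a given distance (kb, log axis) of the nearest transcription start, in the BIBR1532, vehicle and common lists, for ancient repeats (solid), all intron and intergenic regions (dashed), and LINE-1 and B1 (dotted). Within 10 kb lie 14.9% of ancient repeats of the BIBR1532 list and 19.02% of the vehicle list, between LINE-1 and B1, and the common panel rests on 24 ancient repeats.

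A repeat is named only in introns and intergenic DNA, and no such condition-specific region lay nearer than 101 bp to a start. The members nearest to a start all lay in a first intron, which the annotation makes likely. In the BIBR1532 list these were an L2c element 391 bp into Elmo2, an engulfment and motility adaptor, with a score of 1.76, a MER5B element 406 bp into Chd9, a chromatin remodeler, with a score of 7.03, and a MIR3 element 524 bp into the noncoding 1500009C09Rik, with a score of 1.29. In the vehicle list they were a MER2 element 240 bp into Grb10, an adaptor of insulin signalling, with a score of 6.71, an L2a element 363 bp into Atp6v0a2, a subunit of the proton pump of vesicles, with a score of 7.35, and a MIR element 381 bp into Arhgap29, with a score of 1.31. Of these 6, only the Elmo2, 1500009C09Rik and Arhgap29 regions scored below the most frequent score of their list.

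Opposite calls beside each other were uncommon, and the members' interval in each list holds the share over its intron and intergenic regions. Within 1 kb of a vehicle region lay 8 of the 349 members of the BIBR1532 list (2.29%, 0.995 to 4.47), beside 4.11% of its intron and intergenic regions. Within 1 kb of a BIBR1532 region lay 11 of the 389 members of the vehicle list (2.83%, 1.42 to 5.00), beside 3.38%. In only 1 place were both regions ancient repeats. It lay near Soga1, where a MIR region of the BIBR1532 list at chr2:157050231-157050459 (score 3.03) and a MIRb region of the vehicle list at chr2:157049777-157049927 (score 8.17) were 303 bp apart.

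The 24 common members were 10 MIR, 5 L2 or CR1 and 9 DNA transposon regions. Their scores were between 0.0123 and 0.452, with a median of 0.0532, on the common list's own scale, where intron and intergenic regions had a median of 0.0861. The highest belonged to a MER5A element nearest Plxdc1 at chr11:97987883-97988305, followed by a MIRb element nearest Zdhhc14, a palmitoyltransferase, with 0.261 at chr17:5491236-5491518. An L3 element nearest A730018C14Rik scored 0.158, a MIR element nearest Odf1, a sperm tail protein, 0.109, and a Tigger10 element nearest Ndufb4, a subunit of respiratory complex I, 0.0959. Of the 8 intronic common members, 6 lay in a first intron (75%), beside 66.0% of all common intronic regions. Those closest to a start were a MER20 element 248 bp into Zkscan16, a zinc-finger gene, a MIR3 element 757 bp into Srebf1, a transcription factor of lipid synthesis, and a MER33 element 842 bp into Zc3h7a.

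Some common members lay right beside a condition-specific region. Within 1 kb of a BIBR1532 region lay 5 of the 24 (20.8%, 7.13 to 42.2), beside 18.4% of common intron and intergenic regions, and within 1 kb of a vehicle region lay 1 (4.17%, 0.105 to 21.1), beside 17.6%. The MIR region in Tmem71 adjoined a BIBR1532 region with no gap. The MIR3 region of Srebf1 at chr11:60209643-60209785 lay 80 bp from a BIBR1532 region with a score of 12.5, and the MER102a region of Prex1, a Rac activator, 79 bp from another with a score of 6.34. At Ccn6 the neighbour, 328 bp from a Tigger13a element, was of the vehicle list.

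The members were spread over many genes. The annotation gave 714 nearest genes, of which 672 had 1 member and 42 had more, and 20 had members in both condition-specific lists. The 437 intronic members lay in 410 host genes, and for 103 of them the nearest start belonged to another gene than the host, older symbols of the host set aside. Anks1b, a scaffold protein of the postsynaptic density, was the only gene with 4 members, and all 4 were in the BIBR1532 list. They were a MIRc element with a score of 6.49 and 3 L2 elements with scores of 6.34, 6.34 and 7.36, at chr10:90213906-90214662, chr10:90421096-90421567, chr10:90667349-90668137 and chr10:90771376-90771872. Lypd6b, a gene of the Ly6 family, was nearest to 3 members, all in the BIBR1532 list, and 2 of these lay inside Kif5c, a neuronal kinesin. Introns of Ptprt, a receptor tyrosine phosphatase, held 3 members, all in the vehicle list and nearest the start of Ptprtos. Chd6, a chromatin remodeler, had 2 in the BIBR1532 list and 1 in the vehicle list, and Ncald, which encodes neurocalcin, 1 and 2. The split of all regions at these genes is not given here, so the counts are not shown to be particular to ancient repeats.

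Gene lists of neuronal roles had few members. Among the regions nearest 30 neural transcription factors, 4 of 145 were ancient repeats, with 2 in the BIBR1532 list and 2 in the vehicle list, where all regions nearest these genes split 69 to 72. Those of the BIBR1532 list were the wide L2a region near Neurod1 and a MIRc region in Lhx2 with a score of 1.38. Those of the vehicle list were a MIRc and an L2b region in intron 2 of Cux2, a marker of upper cortical layers, both with a score of 5.19. Among the regions nearest 37 cell adhesion genes, 8 of 430 were members, 5 in the BIBR1532 list and 3 in the vehicle list (62.5%, 24.5 to 91.5), where all regions nearest these genes split 175 to 244 (41.8%). They included Cntnap2, Cadm1 and Cdh4 in the BIBR1532 list and Cdh18 in the vehicle list. Of 194 regions nearest 38 receptors and channels, 2 were members, both in the vehicle list, where all regions split 86 to 99 between the BIBR1532 and vehicle lists. They were a MIR3 region in the calcium channel gene Cacna1c with a score of 9.60, and a MIR region in the potassium channel gene Kcnma1 with a score of 5.19. Of 199 regions nearest 26 axon guidance genes, 1 was a member, a common MIR3 region near Sema6d. Counted by host gene in place of the nearest start, 4 of 203 regions in receptors and channels were members, all in the vehicle list, and 1 of 144 in axon guidance genes, in the BIBR1532 list. All regions in those receptors and channels split 83 to 113, so 0 of 4 in the BIBR1532 list (an interval of 0 to 60.2%) holds their share of 42.3%. None of 36 regions nearest 20 glial, vascular and microglial marker genes was a member, for which the exact interval reaches 9.74%. By nearest gene, the share of members was 2.76% for neural transcription factors (0.757 to 6.91) and 1.86% for cell adhesion (0.807 to 3.63). It was 1.03% for receptors and channels (0.125 to 3.67) and 0.503% for axon guidance (0.0127 to 2.77). These shares are over all 3 lists, where 762 of 41515 regions were members. Their intervals hold the 2.16% of the whole BIBR1532 list and the 2.097% of the whole vehicle list, which leave out common regions.

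A last comparison asked whether the nearest gene of a member also had a common TERT region at its promoter. It was chosen after the values were seen. For DNA transposons this held for 28 of 180 regions of the BIBR1532 list (15.6%, 10.6 to 21.7) and 11 of 194 of the vehicle list (5.67%, 2.86 to 9.92). The intervals do not overlap. In settings added after seeing the data they overlapped without the most frequent score (13.3 to 34.7 and 4.15 to 17.7), at widths of at least 500 bp (11.8 to 41.2 and 1.57 to 20.4) and within 100 kb of a start (10.6 to 23.5 and 3.404 to 12.5), and stayed apart at a score of at least 3. The background over intron and intergenic regions was 13.7% in the BIBR1532 list and 13.4% in the vehicle list, so it was the vehicle share that lay apart from it. In the settings without the most frequent score and at widths of at least 500 bp the vehicle interval holds 13.4%, which is a background over unfiltered regions. MIR had 8.33% in the BIBR1532 list and 7.50% in the vehicle list, and L2 with CR1 had 13.7% and 16.0%, with overlapping intervals in each class. LINE-1 lay below the background in both lists, at 10.3% (8.57 to 12.25) in the BIBR1532 list and 9.50% (7.96 to 11.23) in the vehicle list. The intervals of B1 and ERVL-MaLR hold the background. A share below the background was thus not particular to DNA transposons. Over all members the shares were 13.2% (9.81 to 17.2) and 8.23% (5.69 to 11.4).

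The DNA transposon regions behind this count lay at varied distances from the genes' starts, and none could be a promoter region itself, since a repeat is named only in introns and intergenic DNA. Of the 28 in the BIBR1532 list, 6 lay within 10 kb of the gene's start and 5 beyond 100 kb, and the median distance was 15.2 kb. Of the 11 in the vehicle list, 2 lay within 10 kb and 1 beyond 100 kb, with a median of 24.4 kb. In the BIBR1532 list they included MER5B elements in Chd9 and in Tet3, an enzyme that oxidises methylcytosine. The Tet3 region lay 6139 bp from the gene's start with a score of 6.34. They also included a URR1A element in Gatd3a with a score of 6.69. In the vehicle list they included a Charlie1b element in the zinc transporter gene Slc30a5, 5213 bp from its start with a score of 5.22, and a MER5C element in Rbfox2, a splicing regulator, with a score of 7.77.

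**Figure D5:**
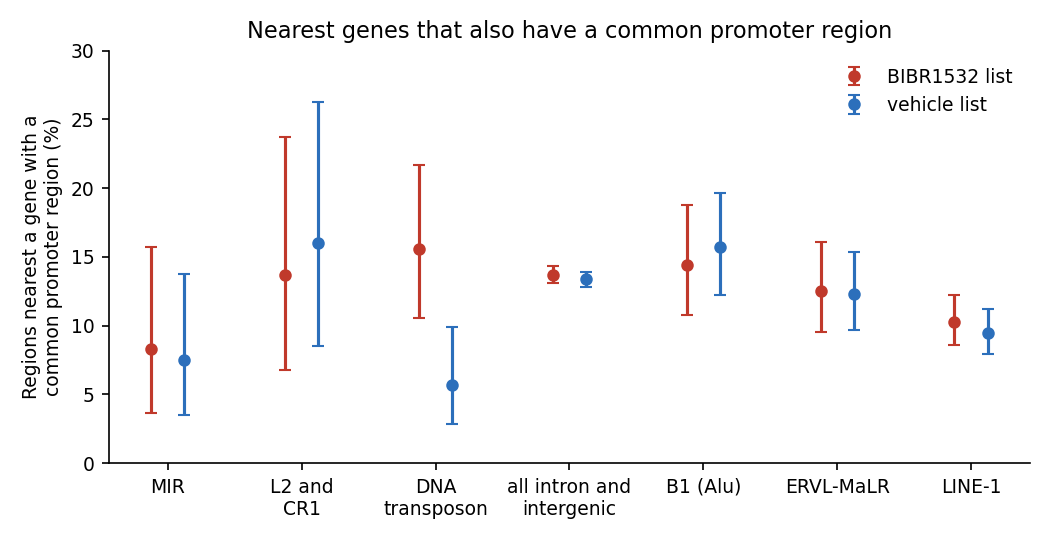
Share (in percent) of regions whose nearest gene also has a common region at its promoter, in the BIBR1532 and vehicle lists, by repeat group and over all intron and intergenic regions, with exact 95% intervals as bars. DNA transposons are the only group whose 2 intervals do not overlap, at 15.6% in the BIBR1532 list and 5.67% in the vehicle list, a separation that 3 of 4 added settings do not keep.

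The share of intron and intergenic regions in ancient repeats was computed for each chromosome. Chromosome 11 had the highest share, 68 of 1941 regions (3.50%, 2.73 to 4.42), and the X chromosome the lowest, 8 of 592 (1.35%, 0.585 to 2.65). Chromosome 5 was next to lowest with 31 of 1909 (1.62%, 1.11 to 2.30). Over all chromosomes the share was 762 of 30810 (2.47%, 2.30 to 2.65).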

How the data were processed

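TERT CUT&Tag was run on 3 BIBR1532 and 3 vehicle samples, grouped by the treatment and dose in the labels. Bowtie2, Picard, MACS2 2.1.2, CASAVA 1.8 and the mm10 build are named in the submitters' processing notes, without their roles. The deposited files are 3 region lists in which the libraries of each condition are combined, per the names of the lists. Per the file headers, regions were annotated with annotatePeaks.pl. The score of each region is the authors' deposited score, and the sources used here do not state its scaling. It was described and ranked only within a list. The alternatives by score filter each list by its own scores and then count regions across lists, so they rest on 2 scales that may differ. The members and all gene lists were chosen with earlier results of these data known.

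Members were selected by repeat class in the detailed annotation, on chromosomes 1 to 19 and X. Counts, shares and exact Clopper-Pearson 95% intervals were computed with Python 3.11.15, pandas 2.3.3 and scipy 1.17.1, and the scripts were tested on simulated lists. No test between conditions was run, because each condition is 1 pooled measurement. A common promoter region is a region of the common list annotated to a gene's promoter. Host introns were read from the annotation and matched to RefSeq. Named regions are, per list, the 5 of highest score, the 3 widest and the 3 closest to a start, besides genes with at least 4 members, opposite regions within 1 kb, subfamilies with at least 20 regions, all common members and up to 4 genes of each gene list. Of the 5 BIBR1532 regions of highest score, 1 is not reported here. Other named genes were chosen after their values were seen. Sequence analysis of all members was not done, as no genome was used here. Alternatives were a score of at least 3, leaving out the most frequent score, a width of at least 500 bp, merging within 1 kb, all contigs, uncertain repeat classes, intron and intergenic regions only, and base pairs in place of regions.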

Additional observations from a re-analysis of the deposited data

How the results depend on the processing

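The BIBR1532 share of condition-specific ancient repeats, 47.3%, lay between 45.9% and 48.3% under the 8 alternatives. Of 43 alternative values over 7 results, 35 stayed inside the interval of the main value. The other 8 were shares of whole lists. The members' share of the BIBR1532 list, 2.16% of all its regions, became 1.69% without the most frequent score, 2.503% at widths of at least 500 bp and 2.63% over intron and intergenic regions only. The vehicle share, 2.097%, became 1.85%, 2.66% and 2.53% under the same settings. The common share, 0.352%, became 0.0985% at widths of at least 500 bp, where 1 member is left, and 1.11% over intron and intergenic regions only. That last setting changes only the regions divided by, since every member is in it.

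In settings added after seeing the data, the BIBR1532 share of URR1A regions, 67.6%, was 66.7% at a score of at least 3, 62.5% without the most frequent score and 71.4% within 100 kb of a start, but 33.3% at widths of at least 500 bp, where 6 regions are left. The hAT-Tip100 share was between 71.4% and 100% (2 regions at widths of at least 500 bp) and the TcMar-Tigger share between 30% and 38.5%. The share of DNA transposon regions nearest a gene with a common promoter region stayed higher in the BIBR1532 list (16.3% to 24.3%) than in the vehicle list (5.73% to 9.41%) under these settings, but the intervals overlapped in 3 of the 4, all except a score of at least 3. The interval of hAT-Tip100 and that of URR1A held 46.5% without the most frequent score and at widths of at least 500 bp, and that of TcMar-Tigger left it out at a score of at least 3. The 46.5% is over unfiltered regions and is not a like background for filtered ones.

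No paired analysis was possible because the lists carry no sample columns and the result comes from no test. The combined libraries give no spread between samples, the sources used here do not state the sequencing depth, and all regions of a list share their libraries, so the intervals leave out any spread between cultures.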
